A study of Mus musculus with 5 samples.

Results

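The early pancreas is set up by a small group of transcription factors, and 5 of their genes, Pdx1, Ptf1a, Mnx1, Nkx6-1 and Sox9, were followed here through 5 mouse embryonic tissues. The members were taken by gene name, as the rows of the deposited expression table that carry exactly these names. Each name had 1 row, so the group holds 5 of the 12375 loci with a gene name and of the 14053 loci in all. The tissues came from C57BL/6J embryos: samples labelled foregut and medial foregut at E8.5 (day 8.5 of embryonic development), and at E10.5 the liver and the ventral and dorsal pancreatic buds, labelled ventral pancreas and dorsal pancreas. No genotype, transgene or treatment is named in the labels, and how tissue was isolated or pooled is not described there. Each tissue was represented by 1 library, so no value has a replicate error, no test was run, and every difference below compares libraries and not conditions.

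Poly(A) RNA was sequenced, and levels are FPKM (fragments per kilobase of transcript, scaled to the number of mapped fragments), a unit that corrects for transcript length and can be compared between genes. Summed FPKM ranged from 437581 in dorsal pancreas to 506529 in medial foregut, and the depth in reads is unknown. Liver carried its own markers: 10 genes of hepatoblasts, the liver progenitors, summed to 8456 FPKM there, 2340 in ventral pancreas, 554 in dorsal pancreas and at most 91.0 at E8.5. Heart muscle genes were high at E8.5, where 8 of them summed to 5161 FPKM in foregut and 8849 in medial foregut, against 487 in liver and at most 25.1 in the pancreatic libraries. The E8.5 libraries thus hold RNA of tissue beside the endoderm, the layer that forms the gut lining.

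The pancreas grows from a dorsal and a ventral bud of the foregut endoderm. Pdx1, a homeodomain protein, is needed for the buds to grow beyond their first outline, and Ptf1a, a basic helix-loop-helix protein, for ventral pancreatic fate and later for acinar cells. Mnx1, also called Hb9, is a homeodomain protein needed for the dorsal bud, Nkx6-1 is a homeodomain protein of multipotent progenitors and later of beta cells, and Sox9 is an HMG-box protein that maintains the progenitor pool. Outside the pancreas Mnx1 and Nkx6-1 are known from motor neurons and the ventral neural tube, Sox9 from neural crest and cartilage, and Ptf1a from hindbrain and spinal cord.

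The start regions of the genes are shown because all 5 genes were higher in both pancreatic libraries than in liver, so that their promoters can be set side by side. RefSeq's promoter table (GRCm38.p6) held a window for 4 of the 5 genes, Pdx1, Ptf1a, Mnx1 and Nkx6-1. Printed below, 5′ to 3′ on the strand of the gene, are the bases before the annotated start: chr5:147269847-147269958 for Pdx1 (plus strand, 112 bases, ending where GENCODE M21 places the first transcribed base), chr2:19445413-19445662 for Ptf1a (plus strand, 250 bases) and chr5:29478471-29478720 for Mnx1 (minus strand, 250 bases). Capitals mark matches, on either strand, to TAAT (a core of many homeodomain sites), CCAAT (the box bound by NF-Y), CANNTG (the E-box of helix-loop-helix proteins) and TATAA (the core of the TATA box).
Pdx1: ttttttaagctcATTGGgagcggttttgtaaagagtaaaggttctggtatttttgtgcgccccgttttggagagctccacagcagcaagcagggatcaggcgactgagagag
Ptf1a: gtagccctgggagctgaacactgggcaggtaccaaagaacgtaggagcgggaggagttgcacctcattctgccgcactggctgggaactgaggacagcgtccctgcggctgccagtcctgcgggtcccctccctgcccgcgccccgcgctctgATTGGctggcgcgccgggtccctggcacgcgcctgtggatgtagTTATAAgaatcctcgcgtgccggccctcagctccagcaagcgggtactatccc
Mnx1: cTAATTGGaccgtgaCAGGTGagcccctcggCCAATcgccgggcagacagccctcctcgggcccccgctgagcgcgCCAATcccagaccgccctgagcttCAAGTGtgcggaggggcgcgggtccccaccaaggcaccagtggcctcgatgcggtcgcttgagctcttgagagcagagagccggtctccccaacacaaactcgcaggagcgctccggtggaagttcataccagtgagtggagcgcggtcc

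Matches were counted in the 250 bases before the RefSeq start, and positions are those of a match's first base, counted back from the start. CCAAT was found in 3 of the 4 windows. It lay 97 bases before the start in Ptf1a, 238 and 74 bases in Pdx1, and 247, 219 and 174 bases in Mnx1. The Pdx1 match at 74 bases is downstream of the stretch printed. Of all 32851 promoter windows 33.8% hold CCAAT. Ptf1a had the only TATAA match, read on both strands 53 and 52 bases before the start as 1 overlapping run, and 22.8% of all windows hold one. The E-box letters were found in Pdx1 (128, 122 and 51 bases before the start, all downstream of the stretch printed) and in Mnx1 (235 and 150 bases), against 66.2% of all windows. TAAT was found in Mnx1 alone of the 4, 249 bases before the start and overlapping a CCAAT match, while 54.9% of all windows hold it. The Nkx6-1 window held none of these letters. It is not printed, because fewer than 50 of its bases precede the first base that GENCODE M21 annotates as transcribed. Most of that window is thus annotated as transcribed. The bases printed were 66.0% G or C in Ptf1a, 66.4% in Mnx1 and 48.2% in the 112 bases of Pdx1. The median of all windows was 52.4%. These matches describe letters and are no evidence of binding.

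Pdx1 (mm9 chromosome 5, 148081169 to 148092911, plus strand) was high in the pancreatic buds and near 0 in liver. It stood at 0.945 FPKM in foregut and 0.444 in medial foregut at E8.5, and at 0.0313 in liver, 39.2 in the ventral bud and 40.9 in the dorsal bud at E10.5. Both pancreatic libraries were high and the other 3 were below 1 FPKM. Ptf1a (chromosome 2, 19363424 to 19369128, plus strand) stood at 0.0443 FPKM in foregut, was listed at 0 in medial foregut and liver, and stood at 7.55 in ventral and 8.32 in dorsal pancreas. Of the 5 genes it had the lowest level in every library other than ventral pancreas, where Nkx6-1 was lower.

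Mnx1 (chromosome 5, 29799983 to 29805144, minus strand) had the same order of tissues as Pdx1, and in the buds a level between those of Pdx1 and Ptf1a. It stood at 0.921 FPKM in foregut and 0.577 in medial foregut at E8.5, and at 0.00610 in liver, 11.0 in the ventral bud and 19.1 in the dorsal bud at E10.5. Nkx6-1 (chromosome 5, 102086566 to 102119311, minus strand) was, like Sox9, above 1 FPKM in both E8.5 libraries. It stood at 7.98 FPKM in foregut and 1.78 in medial foregut at E8.5, and at 0.0138 in liver, 7.05 in the ventral bud and 13.1 in the dorsal bud at E10.5. The foregut library was thus above ventral pancreas for this gene. Sox9 (chromosome 11, 112525269 to 112649073, plus strand) was the one member detected above 1 FPKM in all 5 libraries. It stood at 9.17 FPKM in foregut and 4.21 in medial foregut at E8.5, and at 2.32 in liver, 37.0 in the ventral bud and 25.3 in the dorsal bud at E10.5.

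**Figure D1:**
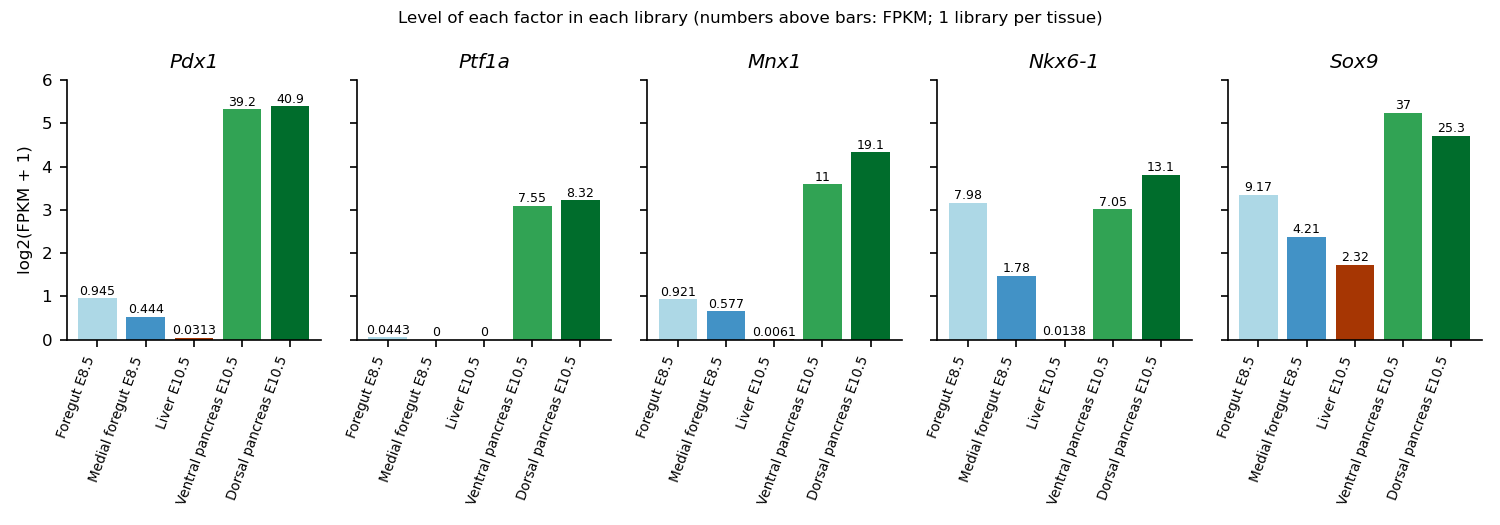
Level of each factor in the 5 libraries, as log2(FPKM + 1) on the vertical axis, 1 bar per library with its FPKM above it. Pdx1, Ptf1a and Mnx1 are below 1 FPKM in the 3 libraries other than pancreas, while Nkx6-1 and Sox9 are also present at E8.5.

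The intervals of the table are wider than the annotated genes for some members. The Sox9 locus spans 123804 bases where RefSeq (GRCm38) annotates 5548, the Nkx6-1 locus 32745 against 5528, the Pdx1 locus 11742 against 5752 and the Ptf1a locus 5704 against 1839. For Mnx1 the spans are 5161 and 4648 bases. The strand is that of the annotation for all 5. The long noncoding RNA locus BC006965 has the same interval as Sox9 on the opposite strand, although RefSeq places the genes apart, and without strand marking in the library protocol reads of an overlap cannot be told apart. It stood at most at 1.99 FPKM, in ventral pancreas.

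Each gene's summed FPKM over the 5 libraries was split by library to compare the shapes of the profiles. The pancreatic libraries together held nearly all of Pdx1 (48.1% ventral, 50.2% dorsal) and of Ptf1a (47.5% and 52.3%). Mnx1 was tilted to the dorsal side, with 34.9% in ventral and 60.4% in dorsal pancreas. Sox9 was tilted to the ventral side, with 47.5% and 32.4%, and a further 11.8% lay in foregut, 5.40% in medial foregut and 2.98% in liver. Nkx6-1 was the most widely spread, with 26.7% in foregut and 5.96% in medial foregut, 0.0460% in liver, and 23.6% and 43.8% in the ventral and dorsal buds. Between Pdx1 and Ptf1a 2.10% of the profile differed, measured as the share that would have to move from one library to another to make the profiles equal. The other 9 pairs of members differed by 12.6% (Ptf1a and Mnx1) to 32.4% (Ptf1a and Nkx6-1).

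**Figure D2:**
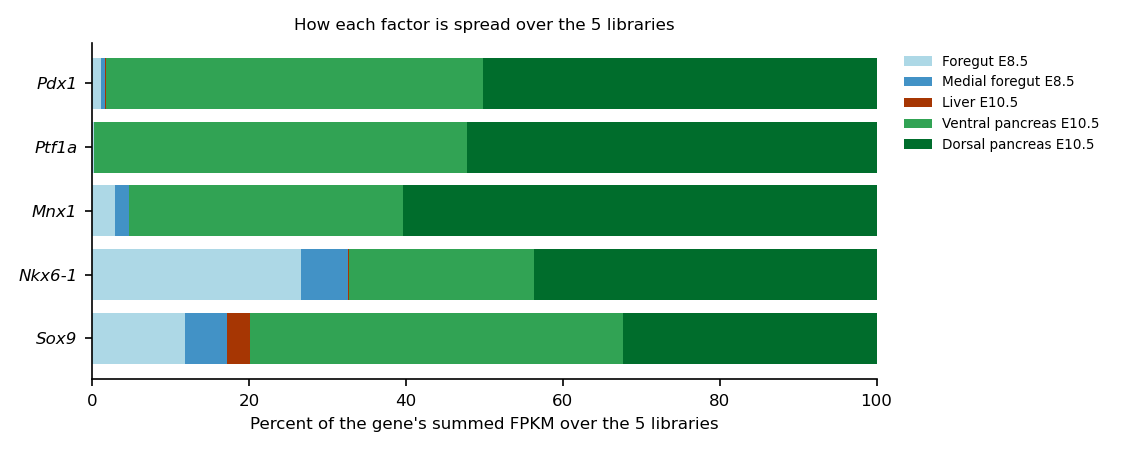
Share of each factor's summed FPKM found in each of the 5 libraries, in percent on the horizontal axis, 1 bar per gene and 1 colour per library. The bars of Pdx1 and Ptf1a are almost wholly pancreatic and split nearly evenly between the buds, and Nkx6-1 has 26.7% in foregut.

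The first comparison set each bud against liver of the same age. All 5 were higher in ventral pancreas than in liver, and all 5 in dorsal pancreas than in liver. A gene was called higher when log2(FPKM + 1) differed by at least 2, which is 4 times in FPKM + 1, and the higher library had at least 5 FPKM. Of all named loci 2.76% were called higher in ventral pancreas than in liver and 3.35% in dorsal pancreas. The libraries are bulk tissue, so fewer cells of a type and less RNA per cell cannot be told apart.

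Pdx1 had the largest difference of the 5 against liver, 5.29 on the log2(FPKM + 1) scale in ventral and 5.35 in dorsal pancreas. Only 8 named loci exceeded it in the ventral comparison, where it was 9th, and it was 14th in the dorsal one. Mnx1 differed by 3.58 and 4.32 and was 53rd and 27th. Nkx6-1 differed by 2.99 and 3.80, and Ptf1a by 3.10 and 3.22. Sox9 differed by 3.52 in ventral and 2.98 in dorsal pancreas. For Sox9 liver was low but not near 0, and the FPKM ratio was 16.0 and 10.9. The median difference from liver over the 5 genes was 3.52 for the ventral and 3.80 for the dorsal bud, and that of all named loci was 0.17 and 0.16. These comparisons share the liver library.

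Epithelial genes also differed between these libraries. Of 12 measured epithelial genes 9 were called higher in ventral pancreas than in liver and 8 in dorsal pancreas, with median differences of 3.38 and 2.40. Their summed level was 417 FPKM for liver, 1493 for the ventral bud and 824 for the dorsal bud. The cell adhesion gene Epcam stood at 28.4 FPKM for liver, 343 for the ventral bud and 163 for the dorsal bud. With each library scaled by Epcam and Cdh1, Pdx1 alone was called higher in ventral pancreas than in liver, and Pdx1, Mnx1 and Nkx6-1 in dorsal pancreas. This scaling divides the ventral library by 3.45, which takes Ptf1a, Mnx1 and Nkx6-1 there under the minimum of 5 FPKM. For Ptf1a and Nkx6-1 the difference also falls below the size of 2. Per Epcam, Mnx1 was 0.0215% in liver and 3.22% in the ventral bud, and Nkx6-1 0.0485% and 2.05%, with both genes below 1 FPKM in liver. Ptf1a was listed at 0 in liver and was 2.20% of Epcam in the ventral bud. Set against Epcam directly, Pdx1 FPKM was 0.110% of Epcam FPKM for liver, 11.4% for the ventral bud and 25.1% for the dorsal bud. For Sox9 the same figures were 8.17%, 10.8% and 15.5%, a smaller contrast. Per Cdh1 Sox9 was 16.6%, 42.6% and 39.3%, and per Foxa2 9.66%, 81.0% and 76.4%, so the contrast between liver and the buds depended on the gene used. Whether epithelial content had a part in these differences was not tested.

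**Figure D3:**
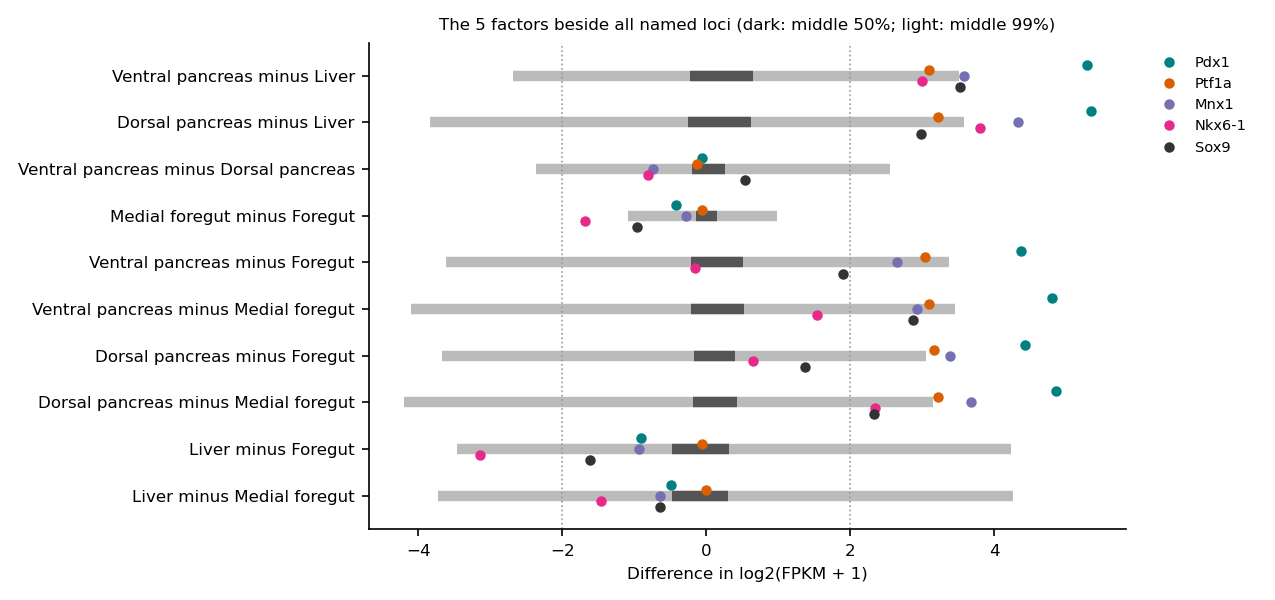
Differences in log2(FPKM + 1) on the horizontal axis for the 10 pairs of libraries, with a point for each factor, a dark bar for the middle 50% and a light bar for the middle 99% of the 12375 named loci, and dotted lines at the size of 2. Pdx1 lies beyond the light bar in all 6 pairs of a pancreatic library with liver or an E8.5 library, and Nkx6-1 lies beyond it in medial foregut minus foregut.

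The second comparison set each bud against the E8.5 tissues. Pdx1, Ptf1a and Mnx1 were higher in ventral pancreas than in each E8.5 library, and the same 3 were higher in dorsal pancreas. Nkx6-1 and Sox9 were not called. In ventral pancreas Pdx1 alone stayed called with a pseudocount of 5 FPKM, with scaling by Epcam and Cdh1 and with scaling by Foxa2, and Sox9 was called in addition with a pseudocount of 0.1 FPKM or a size of 1. In dorsal pancreas a pseudocount of 5 FPKM left Pdx1 and Mnx1, scaling by Epcam and Cdh1 left Pdx1, and a size of 1 added Sox9. The background was 1.96% of named loci for ventral and 1.45% for dorsal pancreas, and both comparisons share the E8.5 libraries. Pdx1 differed by 4.37 from foregut and 4.80 from medial foregut in ventral pancreas, and by 4.43 and 4.86 in dorsal pancreas. Mnx1 differed by 2.65 and 2.93 in ventral and by 3.39 and 3.67 in dorsal pancreas.

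Sox9 came close to the limit in ventral pancreas. It differed by 1.90 from foregut and 2.87 from medial foregut there, and by 1.37 and 2.33 in dorsal pancreas. In FPKM it was 4.04 times its foregut level in ventral and 2.76 times in dorsal pancreas. Nkx6-1 differed by -0.16 from foregut and 1.53 from medial foregut in ventral pancreas, and by 0.65 and 2.34 in dorsal pancreas. Without rescaling, the direction for Nkx6-1 thus depended on the reference library in ventral pancreas, and in dorsal pancreas it did not. With scaling by Epcam and Cdh1 the dorsal difference of Nkx6-1 was -0.9955 from foregut and 0.9187 from medial foregut. With scaling by Foxa2 these were -0.1306 and 1.2353. The Sox9 difference from foregut was -0.5196 in ventral and -0.332 in dorsal pancreas under Epcam and Cdh1. Under Foxa2 it stayed positive, at 0.645 and 0.5662.

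In the liver library the 5 factors stood at or below their E8.5 levels. A call against both E8.5 libraries needs 5 FPKM in each of them, and all 5 factors were below that in medial foregut, so none could be called lower; 2.12% of named loci were. Nkx6-1 differed most from foregut, by -3.15, but only by -1.46 from medial foregut. Sox9 differed by -1.61 and -0.65.

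The third comparison set medial foregut against foregut. None of the 5 was called, and 0.0404% of named loci, 5 in number, were called lower in medial foregut. Pdx1, Ptf1a and Mnx1 were too low in both libraries to be called, so only Nkx6-1 and Sox9 could have been. Nkx6-1 was nevertheless near that limit. Its difference of -1.69 was the 11th lowest of the 12375 named loci, and Sox9 was 95th with -0.96. Pdx1 differed by -0.43, Mnx1 by -0.28 and Ptf1a by -0.06.

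Genes of the neural tube and neural crest were also, by their sums and medians, lower in medial foregut than in foregut. The 9 measured neural tube genes summed to 133 FPKM in foregut and 56.1 in medial foregut, with a median difference of -0.95, and the 8 neural crest genes to 49.4 and 14.2 FPKM, with -1.34. The median over all named loci was 0.00. The neural tube genes Sox1 and Pax3 stood at 14.6 and 11.8 FPKM in foregut and at 7.04 and 3.11 in medial foregut, and the crest gene Sox10 at 8.10 and 0.560. Among the 10 loci with a lower difference than Nkx6-1, read off after the values were seen, were Sox10, Foxd3, Olig2, Olig3 and Msx3, known from neural crest or spinal cord. The rest of the 10 were Uckl1, Nr1h5, Vit, Scube2 and a joined locus of Hoxb5 and Hoxb6. The locus named Foxd3 lies on the strand opposite to the annotated gene. Olig2, which shares the motor neuron progenitors with Nkx6-1, stood at 11.3 FPKM in foregut and 1.31 in medial foregut, and was at most 0.0596 in the E10.5 libraries. Of the neural tube genes 8 of 9 were below 1 FPKM in liver and 6 of 9 in each pancreatic library. Isl2 and Tubb3 were highest in dorsal pancreas, at 5.54 and 13.1 FPKM, against 0.463 and 4.09 in ventral pancreas. The other measured neural tube genes were highest at E8.5. The epithelial genes had a median difference of 0.23 between the E8.5 libraries. The part of neural tissue in the foregut level of Nkx6-1 and Sox9 was not tested.

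**Figure D4:**
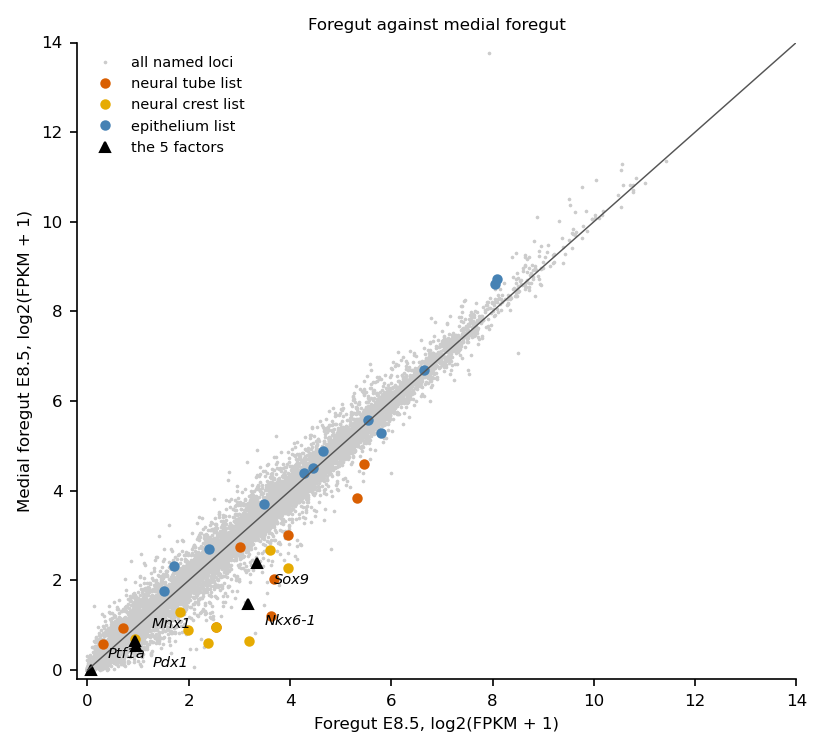
Level in medial foregut (vertical) against foregut (horizontal), both log2(FPKM + 1), for all named loci (grey), the measured genes of the neural tube, neural crest and epithelium lists (coloured) and the 5 factors (triangles). Nkx6-1 and Sox9 lie below the diagonal of equal levels, among neural genes, and Ptf1a lies at the origin.

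The fourth comparison set the buds against each other. None of the 5 factors was called in either direction. Among all named loci 0.913% were higher and 0.768% lower in ventral than in dorsal pancreas. Pdx1 differed by -0.06 (ventral minus dorsal) and Ptf1a by -0.12. Nkx6-1 was lower in ventral pancreas by 0.81 on this scale, with an FPKM ratio of 0.539, and Mnx1 differed by -0.74, with a ratio of 0.578. The share of named loci with a difference as low or lower was 4.97% for Nkx6-1 and 5.62% for Mnx1. Sox9 differed the other way by 0.53, a ratio of 1.46, and 11.9% of loci were as high or higher. With 1 library per bud such differences cannot be set against replicate error.

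Scaling by epithelial genes moved this comparison for Sox9. Under scaling by Epcam and Cdh1 the Sox9 difference was -0.19. Per Epcam all 5 factors were higher in dorsal pancreas: Ptf1a FPKM was 2.20% of Epcam FPKM in ventral and 5.10% in dorsal pancreas, Mnx1 3.22% and 11.7%, and Nkx6-1 2.05% and 8.02%. Per Foxa2, a forkhead factor of gut endoderm, Sox9 was 81.0% in ventral and 76.4% in dorsal pancreas, while Pdx1 was 85.8% and 124%. The direction for Sox9 between the buds therefore turned with the gene used as the measure of endoderm.

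The order of the factors by FPKM was almost the same in both buds. Pdx1 came first, then Sox9, then Mnx1 in each, and only Ptf1a and Nkx6-1 changed places. Pdx1 was above 84.8% of named loci in ventral and 85.7% in dorsal pancreas, and Ptf1a above 40.9% and 44.3%. The ratio of Pdx1 to Ptf1a was 5.20 in ventral and 4.92 in dorsal pancreas. The ratio of Sox9 to Nkx6-1 was 5.25 and 1.93, and the ratio of Sox9 to Mnx1 3.36 and 1.32. At E8.5 the order began with Sox9 and Nkx6-1 in both libraries, and the 5 genes summed to 19.1 FPKM in foregut and 7.02 in medial foregut, against 102 in ventral and 107 in dorsal pancreas and 2.37 in liver.

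Genes with the most similar profiles were sought among 8768 loci with a single name and at least 5 FPKM in 1 library. The measure was the percent of the profile that differed over the 5 libraries, which share depth and composition between all genes. Pdx1 and Ptf1a were each among the other's 5 nearest. For Ptf1a the nearest was Rhov, at 0.530%, followed by Tmem171 at 1.09% and Cpa1 at 1.51%. Cpa1, which encodes a carboxypeptidase of acinar cells and of the early progenitor tips, stood at 0.328 FPKM in foregut and 0.493 in medial foregut at E8.5, and at 0.229 in liver, 27.0 in the ventral bud and 30.7 in the dorsal bud at E10.5. For Pdx1 the nearest were Tmem171 (1.20%), Rasgrf1, a Ras exchange factor (1.76%), Ptf1a, Gdnf, a ligand of the Ret receptor (2.22%) and Rhov (2.48%).

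Loci picked by nearness share the shape of their member by that choice, which holds for every lean given here. The nearest profiles to Mnx1 leaned to dorsal pancreas. They were the matrix gene Matn4 (3.28%), the POU factor gene Pou3f4 (3.40%), Spp1, encoding osteopontin (3.61%), Mamld1 (3.97%) and the potassium channel gene Kcnk16 (5.11%). Spp1 stood at 0.0101 FPKM for liver, 38.0 for the ventral bud and 68.2 for the dorsal bud. Nkx6-1 had few close profiles: 4 loci differed by 10% or less, against 15 for Ptf1a, 19 for Pdx1, 22 for Mnx1 and 35 for Sox9. The nearest were Lrrn1 (5.64%), Scg5, a chaperone of prohormone convertase (6.69%), Cacng4 (9.17%), Fbxl16 (9.65%) and Galntl1 (11.4%), each with more in foregut than in medial foregut. For Sox9 they were Fcho1 (5.10%), BC068157 (5.13%), Kcnn1 (5.59%), Mbp (6.04%) and Asxl3 (6.18%), all highest in ventral pancreas.

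Other transcribed loci lie beside some of the factors, and several of them had the same tissues on top. The window of 100 kb on each side was chosen after the data were seen. It held 15 other loci of the table, of which 6 have no gene name. All 6 unnamed loci had both pancreatic libraries above the other 3, as had 5 of the 9 named loci; of all unnamed loci 32.9% had this order, and of all named loci 28.3%. Neighbours share their chromosomal region with a member and are not independent of it, and whether they are transcripts of their own was not tested.

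Beside Pdx1, 16.0 kb upstream on the minus strand, lies 2210019I11Rik (chromosome 5, 148040164 to 148065195), which RefSeq (GRCm38) names Plut, a long noncoding RNA. It stood at 0.0257 FPKM in foregut, 0.0538 in medial foregut, 6.86 in the ventral bud and 9.00 in the dorsal bud, and liver had it at 0. Its tissues were those of Pdx1, at a lower level. In RefSeq the span of Plut runs into the start of Pdx1 on the other strand, so reads of that overlap cannot be told apart either. Cdx2, the next homeobox gene of this ParaHox cluster and a factor of the intestine, lies 19.6 kb downstream and stood at 1.08, 0.456, 0.173, 2.52 and 1.87 FPKM in foregut, medial foregut, liver, ventral and dorsal pancreas. Around Ptf1a an unnamed locus 9.82 kb upstream stood at 2.07 FPKM in each bud and at most at 0.0378 elsewhere. Another, 0.925 kb downstream, stood at 1.08 and 0.756 FPKM and at most at 0.0172 elsewhere.

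Near Nkx6-1 a pair of unnamed loci on opposite strands share an interval 61.2 kb downstream. They stood at 0.439 and 0.498 FPKM in ventral pancreas and at 1.43 and 0.462 in dorsal pancreas, and at most at 0.0207 in the other libraries. In foregut they were thus near 0 although Nkx6-1 itself stood at 7.98 FPKM there. Beside Mnx1, Nom1, 15.8 kb downstream, differed little between tissues and ranged from 6.14 FPKM in dorsal pancreas to 7.18 in liver. BC006965, in the interval of Sox9, stood at 0.108, 0.0326, 0.0178, 1.99 and 1.62 FPKM in foregut, medial foregut, liver, ventral and dorsal pancreas.

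**Figure D5:**
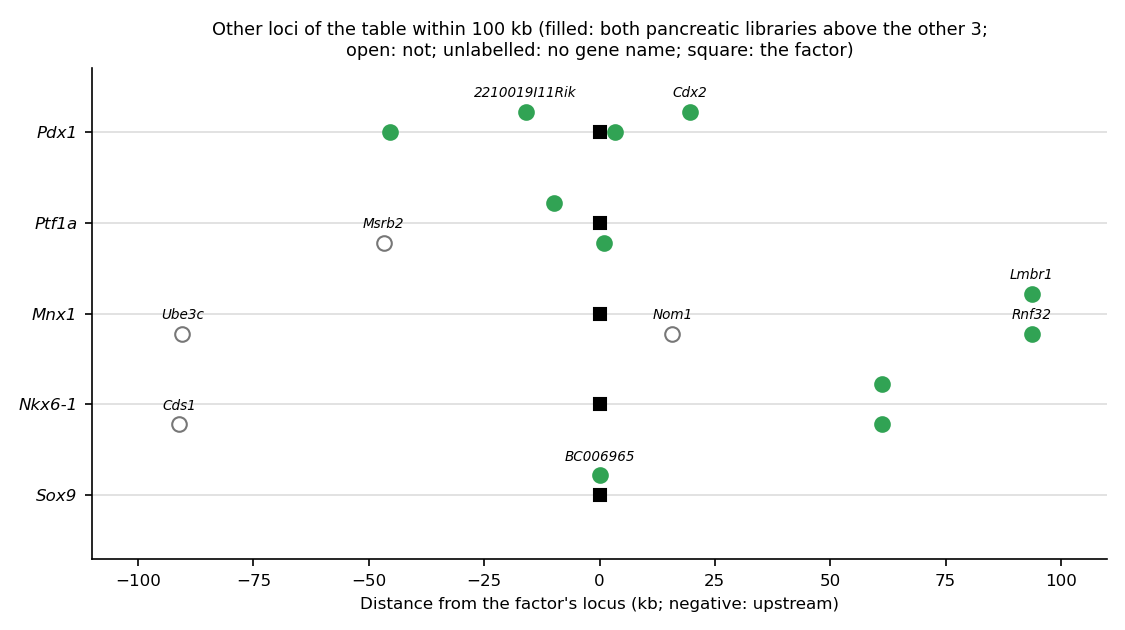
Other loci within 100 kb of each factor, by distance in kb on the horizontal axis (negative is upstream), 1 row per factor, drawn above the line for the minus strand, below it for the plus strand and on it where no strand is given (BC006965 lies above the Sox9 line). Filled circles, 11 of 15, have both pancreatic libraries above the other 3; the 6 unlabelled circles are loci with no gene name.

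RNA of the measured partners of Ptf1a and Pdx1 was above 1 FPKM in every library. Ptf1a acts in a trimer with an E protein and Rbpj or its relative Rbpjl. Of 5 such genes 4 were measured and none was called in any comparison. The E protein genes Tcf3 and Tcf12 stood at 100 to 161 FPKM and 34.4 to 55.4 FPKM over the 5 libraries, Tcf4 at 6.05 to 21.1, and Rbpj at 16.5 in liver and at 26.4 and 26.0 in the ventral and dorsal buds. Pdx1 binds DNA with Pbx and Meis proteins. Of 8 such genes 5 were measured, and Meis3 was called higher in dorsal pancreas than in liver, at 3.90 FPKM for liver, 15.3 for the ventral bud and 35.1 for the dorsal bud. Meis1 stood at 18.8, 32.8 and 73.1 FPKM, Pbx3 at 12.4, 16.8 and 21.4 and Pknox2 at 1.19, 3.30 and 7.27. Meis3 and Pknox2 were also called lower in liver than in both E8.5 libraries, where they stood at 25.5 and 19.5 FPKM in foregut and 21.6 and 12.4 in medial foregut.

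Other factors of pancreatic progenitors were more mixed than the 5 members. Of 14 measured genes on that list 4 were higher in ventral pancreas than in liver and 1 in dorsal pancreas, with 1 lower in dorsal pancreas, and the medians were 0.89 and 0.51. Onecut1, a cut-homeodomain factor upstream of Pdx1, stood at 11.9 FPKM for liver, 78.0 for the ventral bud and 18.3 for the dorsal bud, and Nr5a2, a nuclear receptor, at 22.7, 45.1 and 17.1. Isl1, a LIM-homeodomain factor of endocrine cells and of dorsal mesenchyme, stood at 0.318, 13.3 and 104 FPKM. The locus named Prox1 lies on the strand opposite to the annotated gene, and had 30.3, 9.66 and 11.5 FPKM. A joined locus of Nkx2-2 and its antisense gene, a factor that acts beside Nkx6-1 in progenitors and endocrine cells, had 1.38 FPKM in foregut, 0.274 in medial foregut, 22.1 in the ventral bud and 42.0 in the dorsal bud, with liver at 0. Its reads cannot be split between both genes.

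The shared factors of early endoderm were mixed against liver. Of 12 measured genes 3 were higher and 1 lower in ventral pancreas than in liver, and none higher and 2 lower in dorsal pancreas, with medians of 0.35 and -1.26. The hepatocyte nuclear receptor gene Hnf4a had 158 FPKM for liver, 31.3 for the ventral bud and 13.0 for the dorsal bud. Sox17, which separates the biliary from the ventral pancreatic lineage, stood at 1.10, 65.9 and 0.821 FPKM.

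Endocrine factor and acinar genes were measurable in the buds, and several of them at E8.5 too. Of 15 measured endocrine factor genes 5 were higher in ventral pancreas than in liver and 11 in dorsal pancreas, with medians of 2.04 and 3.23, and 3 were lower in the ventral than in the dorsal bud. All 15 reached 1 FPKM in each bud, and 12 were below it in liver. Neurod1, which drives endocrine differentiation, was listed at 0 in medial foregut and liver and stood at 0.0856 FPKM in foregut, 6.74 in ventral and 19.3 in dorsal pancreas. Irx1 and Irx2 stood at 4.01 and 3.85 FPKM in the ventral bud and 23.6 and 20.1 in the dorsal bud, and also at 16.7 and 7.90 in foregut. Of 15 acinar genes 5 were measured, and 2 of these, Cpa1 among them, were higher in each bud than in liver. Pnliprp1 was lower in each bud than in liver, at 33.8 FPKM in liver against 3.39 in the ventral and 5.06 in the dorsal bud. Spink3 was lower in dorsal pancreas alone, at 12.3 FPKM in liver, 15.5 in the ventral and 0.982 in the dorsal bud. Spink3 was highest at E8.5, with 68.8 FPKM in foregut and 137 in medial foregut.

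Genes known as targets or companions of Sox9 in cartilage and ducts were split. Of 11 measured, 4 were higher in ventral pancreas than in liver and 4 in dorsal pancreas, with medians of 1.23 and 1.52. Col2a1, Matn4 and Spp1 were called in both, Fgfr2 in ventral and Col11a1 in dorsal pancreas. The collagen gene Col2a1 stood at 168 FPKM in foregut and 279 in medial foregut at E8.5, and at 2.01 in liver, 124 in the ventral bud and 73.7 in the dorsal bud at E10.5. Its order in the buds was that of Sox9, and at E8.5 it was higher in medial foregut, where Sox9 was lower. Matn4 stood at 0.0346 FPKM for liver, 8.22 for the ventral bud and 13.1 for the dorsal bud. Hapln1 was highest at E8.5, with 35.7 and 53.1 FPKM, and stood at 0.795 in ventral pancreas.

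Some of the signals that place the pancreatic domain were lower at E10.5 than at E8.5. Of 17 measured signalling genes 3 were called lower in ventral pancreas than in both E8.5 libraries, 3 in dorsal pancreas and 5 in liver. None was called higher. Of all named loci 2.12% were called lower in liver, and this share was not computed for the buds. Other genes of the list were above both E8.5 libraries in the buds without being called. Notch1 stood at 13.1 FPKM in foregut, 8.69 in medial foregut, 29.5 in the ventral bud and 18.0 in the dorsal bud. Dll1 stood at 13.0, 4.99, 20.7 and 17.8 FPKM. Shh, which represses Pdx1 in the gut tube and is absent from the pancreatic endoderm, stood at 10.2 FPKM in foregut and 7.35 in medial foregut at E8.5, and at 0.00678 in liver, 3.14 in the ventral bud and 0.417 in the dorsal bud at E10.5. Its effector Gli1 stood at 22.8, 15.1, 0.996, 1.36 and 13.9 FPKM in the same order. Aldh1a2, which makes retinoic acid, stood at 35.4, 16.0, 2.51, 0.353 and 1.16 FPKM, and Bmp2 at 14.7, 28.1, 2.67, 1.73 and 0.408.

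Markers of other tissues also differed between the buds. The 10 hepatoblast genes summed to 2340 FPKM in ventral and 554 in dorsal pancreas, and 8 were called higher in ventral pancreas. The 13 measured mesenchymal genes summed to 225 FPKM in ventral and 487 in dorsal pancreas, and 4 were called lower in ventral pancreas. The 8 endothelial genes summed to 27.3 and 57.6 FPKM, and 4 were called lower in ventral pancreas. Flt1 alone of them was called higher there, at 14.3 FPKM against 2.17. The 8 biliary genes summed to 366 and 203 FPKM, and 2 were called higher in ventral pancreas. Of the biliary genes Spp1 (38.0 and 68.2) and Krt7 (29.4 and 40.2) were higher in dorsal pancreas, without being called. Of the 7 stomach and duodenum genes 3 were lower in ventral pancreas, among them Barx1, a gene of stomach mesenchyme, at 0.360 FPKM against 89.3. Blood genes summed to 115 FPKM in the ventral and 29.7 in the dorsal bud, and Hbb-y, an embryonic globin, made up most of it with 111 and 24.4. Heart muscle genes were low in both, with Actc1 at 0.217 and 0.752 FPKM. The 9 neural tube genes had a sum of 12.4 FPKM for the ventral bud against 26.4 for the dorsal bud. For the 8 neural crest genes these sums were 19.5 and 33.7. The median differences (ventral minus dorsal) of these lists were only 0.04 and 0.02. In each list 1 gene was called lower in the ventral bud: Isl2, at 0.463 FPKM against 5.54, and Ngfr, at 1.17 against 15.8. The part of all these tissues in the bud differences of Mnx1, Nkx6-1 and Sox9 was not tested.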

How the data were processed

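RNA from 5 tissues was measured, 1 library each. The authors deposited 1 table with an FPKM value per locus and library. TopHat 1.33, Cufflinks 1.3.0 and mm9 are named, per the submitters' processing notes, with no role or order. No source used here gives the annotation, the scaling between libraries or how loci were chosen. Columns were matched to samples by the column name in each sample's label. Members, gene lists (20) and alternatives were chosen with earlier results of these data known. Loci without a name (1678) entered only the neighbour counts, and 731 loci carried joined names.

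Differences are on the log2(FPKM + 1) scale, a pseudocount of 1 FPKM, which understates the change of low genes. The size rule was a difference of 2 with 5 FPKM in the higher library. A comparison against both E8.5 libraries needed the same direction against each. Named by rule were the 5 members, all measured partners and relatives, 4 genes per list with the largest range over the libraries, and 5 nearest profiles per member. Epcam, Cdh1, Foxa2, Fgfr2, Col11a1, Isl2, Tubb3, Flt1 and Krt7 were added after their values were seen. So were the loci lowest in medial foregut minus foregut, the joined Nkx2-2 locus and the loci near members. Some genes that the rule names are not reported here. At values below 0.2 FPKM in 2 libraries the commonest ratio was held by at most 5.56% of loci (1 of 18), so no reads were recovered. Alternatives were other pseudocounts, 4 rescalings, no minimum and a smaller size. Coordinates are those of the table (mm9), whose start convention is not stated; GENCODE M21 and RefSeq on GRCm38 served for names, strand, spans and promoters only. Python 3.11.15 and pandas 2.3.3 were used.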

Additional observations from a re-analysis of the deposited data

How the results depend on the processing

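With 1 library per tissue no replicate could be left out and no call has an error. Of 32 recomputed counts of called members whose reported count was above 0, 23 stayed within 1.5 times of it and 9 moved. Rescaling to the same summed FPKM, rescaling by median ratios and dropping the minimum moved none of them. A pseudocount of 5 FPKM left 2 members higher in ventral pancreas than in liver (Pdx1 and Sox9), 3 in dorsal pancreas than in liver (Pdx1, Mnx1 and Sox9) and 1 in ventral pancreas than at E8.5 (Pdx1). Scaling by Epcam and Cdh1 left 1, 3 and 1 in these comparisons and 1 in dorsal pancreas against E8.5, with Pdx1 among them each time. Scaling by Foxa2 left 3 (Pdx1, Mnx1 and Sox9) in ventral pancreas against liver and 1 (Pdx1) against E8.5. A pseudocount of 0.1 FPKM, and likewise a size of 1, called 1 member, Nkx6-1, lower in medial foregut than in foregut. The cause of these changes was not tested. Pdx1 was called higher in each bud than in liver and than at E8.5 under all 8 alternatives.

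No called difference changed sign. Among all 50 differences of members between 2 libraries, 5 changed sign, all for Sox9 or Nkx6-1 and all under scaling by Epcam and Cdh1, 1 of them also under Foxa2. Median-ratio rescaling shifted the median of all loci in ventral pancreas minus liver by -0.19, Foxa2 by -0.73, and Epcam and Cdh1 by -2.61, so differences under the last are relative to epithelial genes. Without read depth, levels below 1 FPKM carry no known precision.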

Other observations

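Relatives of the 5 factors were mostly low in the buds. Of 12 family members sought, 5 had a locus of their own. Sox8, of the same SoxE family as Sox9, had 0.588 FPKM in liver and 1.88 and 3.25 in the ventral and dorsal buds, and the related Sox10 0.112, 0.679 and 0.497, against 37.0 FPKM of Sox9 in ventral pancreas. Cdx1, an intestinal relative of Cdx2, stood at 6.55 FPKM in foregut and 2.04 in medial foregut, 1.89 in liver, and 0.241 and 0.182 in the ventral and dorsal buds, with foregut highest and the buds lowest. Twist1, a helix-loop-helix factor of mesenchyme, stood at 11.6, 19.0, 8.09, 1.26 and 2.47 FPKM, with both buds below the other tissues, and was called lower in ventral pancreas than in liver and than in both E8.5 libraries.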
